A study of Schizocardium californicum with 12 samples.

Results

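The response to X-rays that larvae and juveniles of the hemichordate *Schizocardium californicum* had in common was measured over all 12 RNA-seq libraries of the series, 6 from irradiated animals and 6 from animals at 0 Gy. The libraries formed 4 groups of 3: larvae at 0 Gy, larvae given 120 Gy, juveniles at 0 Gy and juveniles given 200 Gy. Each library came from total RNA of a pool of 5 animals, collected after 3 days of culture in filtered sea water following exposure. Animals of both kinds were whole organisms, so every value is an average over all cell types, and fewer cells of a type cannot be told apart from less RNA per cell. Each stage had its own dose, so that stage and dose cannot be told apart, and a gene that responded differently in larvae and juveniles may have done so through either.

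*S. californicum* is an indirectly developing acorn worm: a planktonic, ciliated larva metamorphoses into a burrowing juvenile with the adult body plan. Ionising radiation breaks DNA strands. In animals studied so far, dividing cells stop or are lost, and surviving cells express repair enzymes and regulators of the p53 pathway, which halts the cell cycle and can start apoptosis. Genes of the mitotic spindle and of the replication fork are expressed mainly in dividing cells, so their transcripts follow the number and activity of such cells in a tissue.

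The authors deposited reads counted per gene, without normalization. Libraries held 7675726 to 26974509 counted reads, with a p of 0.385 between treatments (exact permutation test within stages, two-sided). In the same exact test the share of reads in introns had a p of 0.70 and the share placed uniquely a p of 0.94. The 10 most abundant genes of a library took a smaller share of its reads after irradiation, 9.96% ± 0.79 (SD, n = 6) against 11.3% ± 0.95 (n = 6) in controls, with an exact p of 0.01 and 0.04 after adjustment over the 4 measures, where the smallest p this design allows is 0.005. Replicates correlated at 0.968 to 0.982 across genes on the log scale. Juvenile control library 2 stood apart in immune genes, with a summed normalized count of 181219 over the antiviral and innate immune list against 121371 and 118886 in the other juvenile controls. Some values that lean on it are also given without it.

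After the mean of each stage was removed, component 1 of a principal component analysis took 30.0% of the variance, and the treatments lay apart on it in both stages. Scores of the 6 control libraries lay between 10.9 and 54.6, and those of the 6 irradiated libraries between −52.1 and −19.2, without overlap. Along this axis the juvenile libraries spread farther from 0 than the larval ones in each treatment, with control larval library 2 (10.9) and irradiated larval library 1 (−19.2) closest to the middle. The second component, with 13.8%, placed irradiated larvae above and control larvae below, and the juveniles the other way round.

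**Figure D1:**
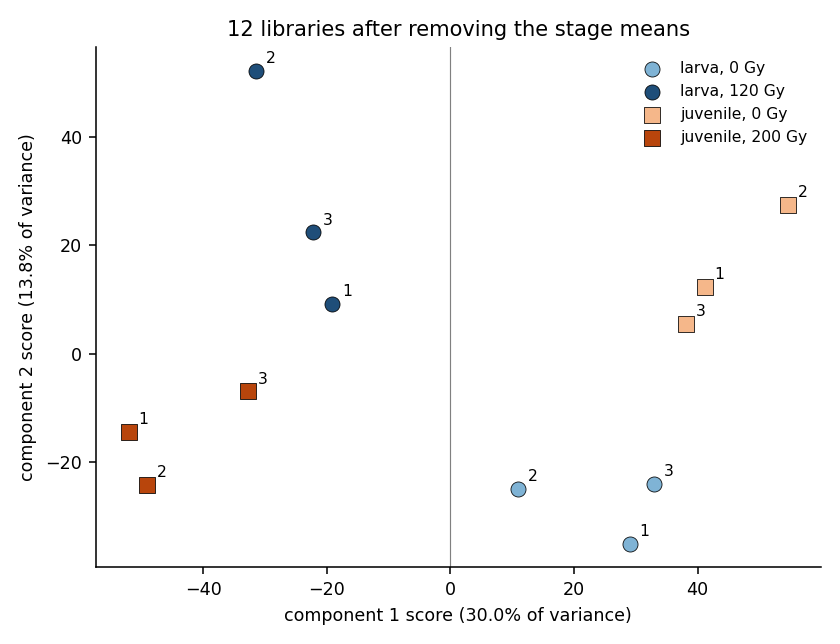
Principal components of log2 normalized counts after the mean of each stage was subtracted. Each point is 1 library, numbered by replicate, with circles for larvae, squares for juveniles and darker fill for irradiated animals. The 6 irradiated libraries lie at −19.2 or below on component 1 and the 6 controls at 10.9 or above.

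Of 20780 genes tested with an additive model of stage plus irradiation, 1798 were lower in irradiated animals (8.65% of those tested) and 1729 were higher (8.32%), with calls made at a Benjamini-Hochberg adjusted p of 0.05 in edgeR's quasi-likelihood test. Falls were larger than rises. The median log2 fold change was −0.86 among the genes called lower and 0.57 among those called higher, and 727 genes fell at least 2-fold while 207 rose at least 2-fold. At 4-fold the counts were 114 and 24. Calls depended on the juvenile libraries most: the count of higher genes went to 1091 without irradiated juvenile library 1 and to 1148 without juvenile control library 1. The median over all genes tested was −0.02. Proteins without an annotated name took part in both directions, with 238 lower and 196 higher among 3186 tested.

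Most of these genes moved the same way in both stages. The stage-specific log2 fold changes had the same sign for 1720 of the 1798 genes called lower and for 1711 of the 1729 called higher, against 60.4% of all genes tested, although the additive test itself favours such genes. The juvenile values were larger: the genes called lower had a median log2 fold change of −0.59 in larvae and −0.99 in juveniles, and those called higher had 0.44 and 0.71. All 3 irradiated libraries lay below all 3 controls in each stage for 900 of the genes called lower (986 of all genes, 4.74%), and above them for 953 of those called higher (1069 of all genes, 5.14%). Across all genes, the larval and juvenile log2 fold changes correlated at 0.25 (Pearson's r across 20780 genes, which are not independent of each other, from comparisons that share no library).

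A stricter test asked each gene to change in the same direction in both stages, taking the larger of its larval and juvenile p-values. It called 78 genes lower (0.375% of those tested) and 53 higher (0.255%), and all 131 were also called by the additive model. These counts were small and moved with single libraries, from 24 (without juvenile control library 1) to 86 (without juvenile control library 2) for lower genes and from 19 (without control larval library 1 or 3) to 48 for higher genes. When each stage was adjusted on its own, 218 of the genes called lower passed in both stages, 117 in larvae only, 1102 in juveniles only and 361 (20.1%) in neither. For the genes called higher, 186 passed in both stages, 117 in larvae only, 1089 in juveniles only and 337 (19.5%) in neither. Passing in a single stage does not show that the stages differed. The difference between the responses was itself called for 722 genes (3.47%), among them 104 of the genes called lower and 105 of those called higher. Opposite changes that each passed in its stage were found for 15 genes.

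**Figure D2:**
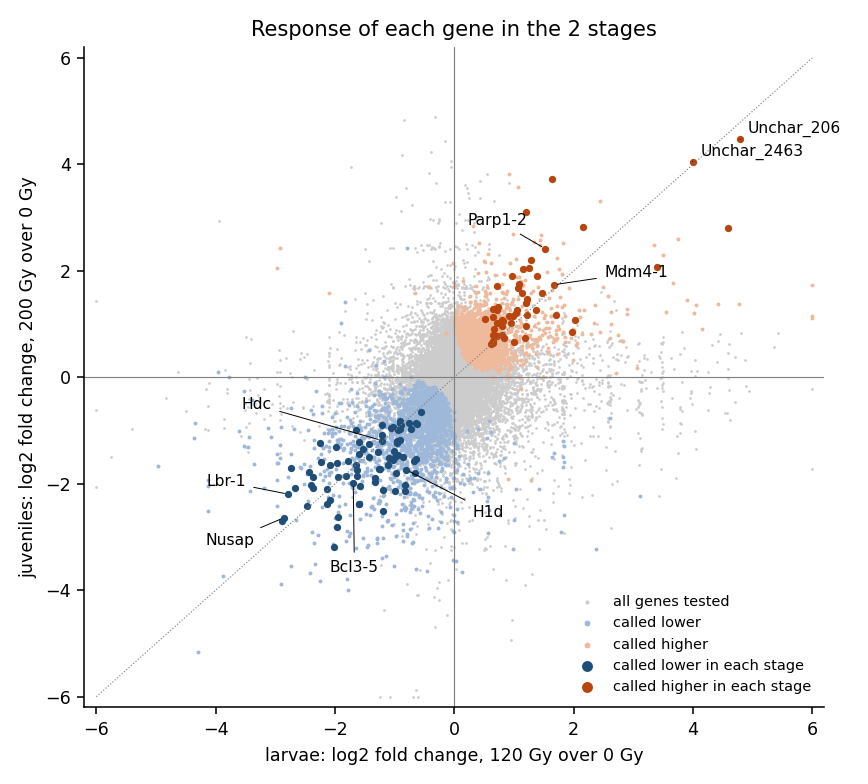
Log2 fold change of each gene in larvae (horizontal, 120 Gy over 0 Gy) against juveniles (vertical, 200 Gy over 0 Gy), with all 20780 genes tested in grey, genes called by the additive model in pale colour and the 78 lower and 53 higher genes called in each stage in dark colour. The dotted line marks equal response, and values beyond 6 are drawn at the edge. Unchar_2463 and Nusap lie near the line, while the genes called lower tend to fall farther in juveniles.

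The strongest shared rises belonged to 2 genes of unknown product. Unchar_2463 (SCA15387, on chr1A_Sc2, 4 exons) had normalized counts of 120, 114 and 92.4 in control larvae and 1698, 1700 and 1792 in irradiated larvae, and of 106, 84.5 and 131 in control juveniles and 1877, 1648 and 1891 in irradiated juveniles. Larvae and juveniles had nearly the same level both without irradiation and after the dose of their stage. The log2 fold change was 4.03 ± 0.12 (SE, adjusted p = 2.2e-10), with no difference called between stages (adjusted p = 0.92). Unchar_206 (SCA01472, on chr2A_Sc2, 6 exons) rose from 37.3, 22.2 and 26.7 to 767, 681 and 885 in larvae, and from 355, 251 and 267 to 7549, 5918 and 5971 in juveniles. Juveniles had more of this transcript both without irradiation and after the dose of their stage. The log2 fold change was similar at 4.79 ± 0.22 in larvae and 4.48 ± 0.20 in juveniles (4.61 ± 0.16 together, adjusted p = 5.3e-10). Unchar_2227 followed with 3.55 ± 0.36 (adjusted p = 7.2e-05), from 0, 14.1 and 15.2 to 270, 269 and 269 in larvae and from 40.5, 21.5 and 39.8 to 282, 247 and 209 in juveniles.

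The 12 largest rises with groups apart in both stages, the condition by which they were chosen, also held genes with an annotated name. Prrt1-9 rose by 2.49 ± 0.30 (adjusted p = 2.1e-04) and Dmbt1-4, named after a scavenger receptor cysteine-rich protein of mucosal surfaces, by 2.56 ± 0.50 (adjusted p = 0.0040). C1qt6-2, of the C1q and tumour necrosis factor related family, went from 6076 to 6649 in control larvae to 12853 to 16289 in irradiated larvae, and from 364 to 524 up to 2427 to 5562 in juveniles. Cp2u1-35, a cytochrome P450, rose by 2.53 ± 0.35, and Unchar_1236 by 2.10 ± 0.35, the latter with 80206 in irradiated larval library 2 against 14076 and 26960 in the other irradiated larvae. Unchar_1699 (2.65 ± 0.54) and Unchar_1739 (2.45 ± 0.49) were also among them, and 27% and 30% of their reads were not placed uniquely, so that near-identical copies could share them.

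Among genes of known product that rose in each stage, outside these 12, were a transcription factor and enzymes of metabolism, named here after their values were seen. Mafa, a large Maf transcription factor, rose from 11289 to 12731 up to 23749 to 24797 in larvae and from 16722 to 18439 up to 34902 to 46894 in juveniles, a log2 fold change of 1.12 ± 0.09 (adjusted p = 1.3e-05). Ptgr1-4, a prostaglandin reductase, rose by 1.66 ± 0.13 (adjusted p = 8.1e-06), Dhso-1, sorbitol dehydrogenase, by 0.79 ± 0.09 (adjusted p = 1.3e-04), and Erbb4-1, a receptor tyrosine kinase of the epidermal growth factor receptor family, by 1.03 ± 0.12 (adjusted p = 1.9e-04). In Mafa, Ptgr1-4, Dhso-1 and Erbb4-1 every irradiated library lay above every control of its stage.

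**Figure D3:**
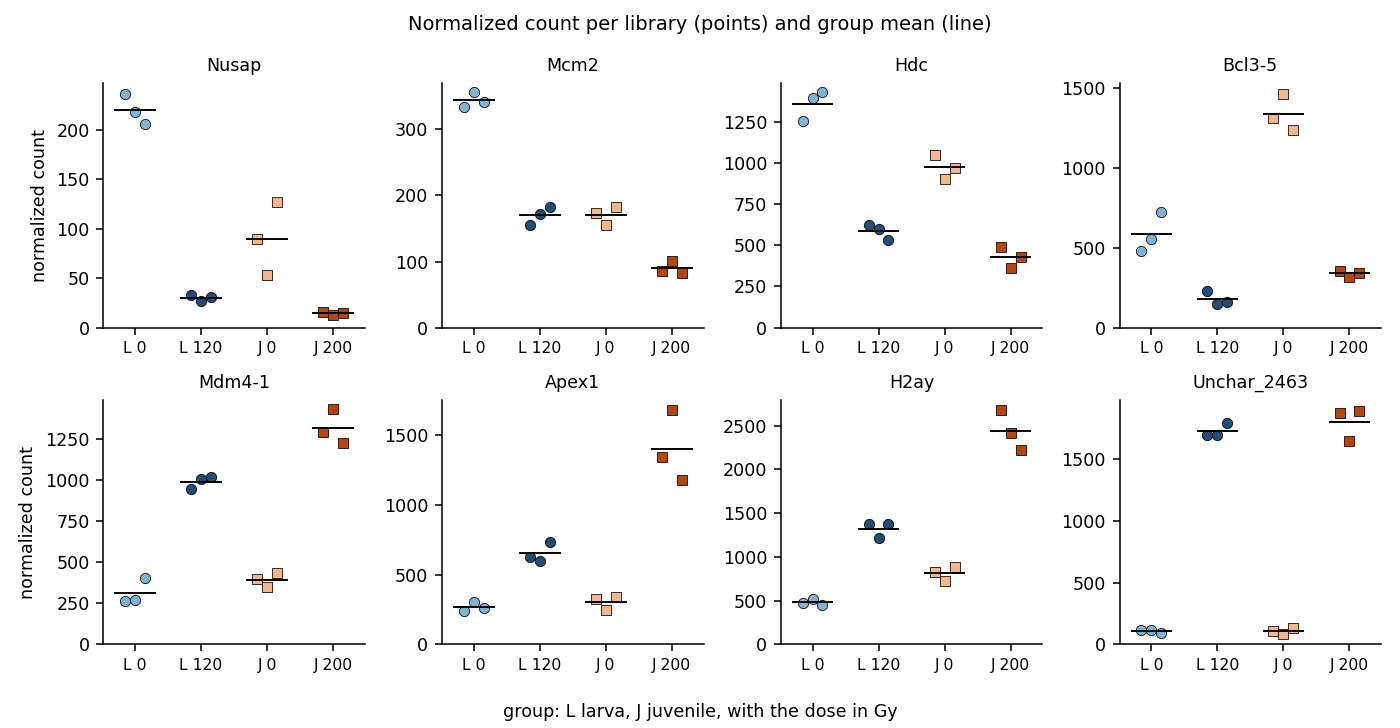
Normalized counts of 8 genes in every library, with points for libraries, a line for the mean of 3, and L and J for larvae and juveniles at the dose in Gy. Nusap, Mcm2, Hdc and Bcl3-5 are lower and Mdm4-1, Apex1, H2ay and Unchar_2463 higher in all 3 irradiated libraries than in all 3 controls of each stage. Each vertical axis starts at 0.

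The largest shared falls were found in genes of antiviral defence, of the spindle and of signalling. Spne-2, annotated as the helicase spindle-E, which acts in the piRNA pathway of the *Drosophila* germline, had 42.4, 12.1 and 22.9 in control larvae, 3.34, 7.75 and 2.95 in irradiated larvae, 219, 465 and 179 in control juveniles and 14.9, 21.9 and 28 in irradiated juveniles. The juvenile groups were far apart, while the larval groups were at low counts and close to each other. The log2 fold change was −3.33 ± 0.39 (adjusted p = 2.0e-04), and −2.91 without juvenile control library 2. Nostn-1, annotated as nostrin, fell by 3.09 on the log2 scale (SE 0.51) and Znfx1-1, an antiviral RNA-binding helicase, by 2.77 (SE 0.57). Both fits lean on juvenile control library 2, where Nostn-1 stood at 1125 against 197 and 182 in the other juvenile controls, and Znfx1-1 at 7043 against 756 and 646. Without that library the log2 fold changes were −2.22 (adjusted p = 2.8e-04) and −1.76 (adjusted p = 0.0059).

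Other genes among the 12 largest falls were helicases, an exchanger, a mobile element and a receptor. Helz2-7 and Helz2-1, annotated as HELZ2 helicases, had log2 fold changes of −2.65 ± 0.39 and −2.62 ± 0.30, and −2.24 and −2.34 without that library. Rtxe-24, annotated as an RNA-directed DNA polymerase of a mobile element, had −3.05 ± 0.42 (−2.60 without juvenile control library 2), and Nckx6-4, a sodium, potassium and calcium exchanger, had −2.60 ± 0.27. Neul4-38 (−2.77 ± 0.32) and Pgfra, a platelet-derived growth factor receptor (−2.69 ± 0.32), were counted mainly on intron reads, 66% and 59% of their totals. Nusap and Lbr-1 are described next, beside the cell division genes. The choice of these 12 genes required controls above irradiated libraries in both stages, and no difference between stages was called for any of them.

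Genes of mitosis and cytokinesis were lower in irradiated animals of both stages. Of 91 tested, 46 (50.5%, against 8.65% of all genes) passed as lower and none as higher. The median log2 fold change was −0.69 (−0.79 in larvae and −0.59 in juveniles). In 40 of the 91 all irradiated libraries lay below all controls in both stages, against 4.74% of all genes. A difference between the stages was called for 1 of the 91. Juvenile control library 2 was itself low in this list, with a median shift of −0.32 from the mean of the juvenile controls, and without it 46 genes were again called lower. Nusap, a microtubule-bundling protein of the spindle, had 236, 218 and 206 in control larvae, 32.8, 26.6 and 30.5 in irradiated larvae, 89.4, 53 and 127 in control juveniles and 15.8, 12.9 and 14.7 in irradiated juveniles. Every irradiated library was below every control of either stage, and the log2 fold change was −2.76 ± 0.20 (adjusted p = 4.9e-06). Lbr-1 is named after the lamin B receptor of the nuclear envelope, which the paper describes as tethering chromatin. Its log2 fold change was −2.52 ± 0.25 (adjusted p = 6.9e-05). Counts went from 172 to 209 down to 16.6 to 36.1 in larvae and from 40.1 to 93.5 down to 11.9 to 20.7 in juveniles. Ctro, the citron kinase of the cleavage furrow, went from 142 to 168 down to 46.5 to 54.8 in larvae and from 40.1 to 61.3 down to 15.8 to 21.9 in juveniles (−1.53 ± 0.15, adjusted p = 7.2e-05). Aspm-1, a protein of the spindle poles, had −2.10 ± 0.20 (adjusted p = 4.4e-05).

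The fall covered regulators as well as structural parts. Cdk1-2, the kinase that drives entry into mitosis, had a log2 fold change of −1.73, Ccna-1, an A-type cyclin, −1.92, Plk1-1, polo-like kinase, −1.40, and Tpx2, which activates Aurora A on the spindle, −1.75. Of the chromosome condensation genes Smc4 had −1.33 and Smc2 −0.58, and of the cytokinesis genes Anln (anillin) had −2.36 and Kif23-1 (the centralspindlin kinesin) −1.90. Ki67-1, the proliferation marker that coats mitotic chromosomes, had −1.20 ± 0.14, from 609 to 648 down to 297 to 378 in larvae and from 336 to 540 down to 150 to 175 in juveniles. Not every gene of the machinery passed: Foxm1, a transcription factor of mitotic genes, had −0.70 (adjusted p = 0.12), and Top2a-1, topoisomerase II, had −0.21 (adjusted p = 0.21) with overlapping groups in both stages. Of the 78 genes that the stricter test called lower in each stage, 17 belonged to this list.

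DNA replication genes fell in part. Of 76 tested, 24 (31.6%, against 8.65% of all genes) passed as lower and 2 (2.63%, against 8.32%) as higher. The list median was −0.31. Mcm2, a subunit of the replicative helicase, had 334, 356 and 341 in control larvae, 156, 172 and 182 in irradiated larvae, 174, 155 and 183 in control juveniles and 86.2, 101 and 82.7 in irradiated juveniles. The groups were apart in both stages, with a log2 fold change of −0.98 ± 0.10 (adjusted p = 8.8e-05). Caf1a, a subunit of the chromatin assembly factor that follows the fork, had −1.27 ± 0.13 (adjusted p = 7.7e-05), and Rir2-2, the small subunit of ribonucleotide reductase, had −1.80 ± 0.19 (adjusted p = 1.1e-04), from 254 to 323 down to 58.7 to 124 in larvae and from 137 to 226 down to 42.6 to 50.4 in juveniles. Uhrf1-1, which brings DNA methyltransferase to new strands, had −0.86 ± 0.11 (adjusted p = 2.8e-04). Kith, thymidine kinase, had −1.76 and Paf15, the PCNA-associated factor, −1.89, whereas Pcna-1 itself, the sliding clamp, had −0.44 ± 0.13 (adjusted p = 0.030). The call of Pcna-1 was lost when any 1 of 7 libraries was left out, with adjusted p-values of up to 0.0704. The 2 members called higher did not pass in larvae, and both calls were lost without juvenile control library 1 or 3 (Dyr-1 to adjusted p = 0.115 and 0.149, Mcm10 to 0.0537 and 0.0572). Dihydrofolate reductase, Dyr-1, had at most 2.21 normalized counts in any larval library, and the change of Mcm10 (0.65 ± 0.17) rested on reads of which 57% fell in introns. With exon reads only, Mcm10 had −0.14 (adjusted p = 0.59).

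MCM paralogs that the annotation names in the style of *Xenopus* were not on the list and were added after their values were seen. Of 6 tested, 4 were called lower. Mcm4b went from 1245 to 1701 down to 488 to 521 in larvae and from 401 to 570 down to 184 to 207 in juveniles (−1.44 ± 0.11, adjusted p = 8.1e-06). Mcm3z had −1.14 ± 0.12, Mcm6z −1.06 ± 0.11 and Mcm3m-2 −1.48 ± 0.20, and treatments did not overlap within a stage in these 4 genes.

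A few chromatin and cell cycle control genes were called in each direction. Of 205 histone and chromatin assembly genes found, 22 passed the filter on low counts. Of these, 4 were lower (18.2%, against 8.65% of all genes) and 3 higher (13.6%, against 8.32%), with a median of 0.02. H2ay, named after the histone variant macroH2A, rose from 478, 519 and 445 to 1380, 1216 and 1379 in larvae and from 832, 722 and 889 to 2684, 2411 and 2222 in juveniles. The groups were far apart in both stages, with a log2 fold change of 1.52 ± 0.09 (adjusted p = 1.3e-06) and 29% of the reads in introns. H1d, a linker histone, fell (−1.27 ± 0.16, adjusted p = 2.7e-04), from 6590 to 6768 down to 3507 to 3980 in larvae and from 4464 to 5342 down to 1366 to 1670 in juveniles. Among 19 genes of G1 control, 3 were lower (15.8%) and 4 higher (21.1%), with a median of −0.01. Cdn2d, a cyclin-dependent kinase inhibitor of the INK4 family, rose from 71.2, 75.7 and 61.9 to 190, 138 and 157 in larvae and from 75.1, 64.4 and 74.5 to 236, 197 and 167 in juveniles (1.35 ± 0.14, adjusted p = 7.3e-05). Myc-1 had −0.44 ± 0.11 (adjusted p = 0.014) and Mnt-1, a Max-binding repressor, −0.81 ± 0.16 (adjusted p = 0.0043).

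Of 103 genes of strand-break repair and the checkpoint, 8 were lower (7.77%, against 8.65% of all genes) and 11 higher (10.7%, against 8.32%), with a median of −0.02 as over all genes. Enzymes that detect and process strand breaks were among those that rose. Parp1-2, a poly(ADP-ribose) polymerase that binds DNA breaks, had 365, 365 and 299 in control larvae, 1008, 958 and 984 in irradiated larvae, 295, 272 and 316 in control juveniles and 1491, 1750 and 1493 in irradiated juveniles. The log2 fold change was 1.97 ± 0.16 (adjusted p = 8.1e-06). Controls of the 2 stages had similar levels, and the rise was larger in juveniles (adjusted p = 0.018 for the difference). Parp2 rose by 1.30 ± 0.18 (adjusted p = 6.0e-04), Parp1-1 by 0.94 ± 0.12 (adjusted p = 4.1e-04), and Xrcc5, the Ku80 subunit that binds DNA ends in end joining, by 0.68 ± 0.10 (adjusted p = 8.0e-04). Parp3-2 rose by 1.51 ± 0.22, with 66% of its reads not placed uniquely.

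The 8 members that fell included Brca2, Brca1 and Bard1. Brca2, a mediator of strand exchange, had 380, 427 and 541 in control larvae, 243, 250 and 227 in irradiated larvae, 179, 159 and 187 in control juveniles and 108, 80.0 and 101 in irradiated juveniles (−0.88 ± 0.12, adjusted p = 4.0e-04). Brca1 had −1.04 ± 0.20 (adjusted p = 0.0042), and its partner Bard1 had −1.16 ± 0.29 (adjusted p = 0.015, and 0.0529 without juvenile control library 3). Both subunits named Smc6 fell, Smc6-1 by 0.60 and Smc6-2 by 0.68 on the log2 scale. Chk2, a checkpoint kinase, rose by 0.48 ± 0.11 (adjusted p = 0.011), and Chk1 had −0.02 ± 0.23 (adjusted p = 0.96).

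In excision and mismatch repair, 2 of 53 genes were lower (3.77%, against 8.65% of all genes) and 5 higher (9.43%, against 8.32%). The share called higher was close to that over all genes, and the median was 0.02. Those given here act in base excision repair or its gap filling, and the share called within that pathway was not counted. Apex1, the endonuclease that cuts at abasic sites, rose from 241, 306 and 258 to 628, 600 and 738 in larvae and from 326, 248 and 339 to 1345, 1683 and 1178 in juveniles, without overlap (1.75 ± 0.18, adjusted p = 7.3e-05). The DNA-3-methyladenine glycosylase 3mg rose by 1.69 ± 0.20 (adjusted p = 2.0e-04), from 28.3 to 48.6 up to 69.7 to 116 in larvae and from 63 to 73.9 up to 238 to 336 in juveniles. Neil2, a glycosylase of oxidised bases, rose by 1.00 ± 0.20 (adjusted p = 0.0052) and Dpolb, DNA polymerase beta, by 0.49 ± 0.11 (adjusted p = 0.0097). The 2 that fell were Xpc, the damage sensor of nucleotide excision repair (−0.62 ± 0.12), and Dpolz, named after a translesion polymerase (−0.53 ± 0.12).

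The p53 pathway list, 39 genes, had 5 lower (12.8%) and 4 higher (10.3%), close to the 8.65% and 8.32% of all genes, and its median was 0.03. Mdm4-1, a relative of the p53 inhibitor MDM2, rose from 261, 270 and 401 to 944, 1004 and 1018 in larvae and from 396, 346 and 436 to 1291, 1430 and 1224 in juveniles. The response was nearly equal in the 2 stages at 1.66 ± 0.16 and 1.74 ± 0.16, and 1.70 ± 0.12 together (adjusted p = 3.8e-06). Ppm1d, a phosphatase that switches off the checkpoint, rose from 314 to 373 up to 1235 to 1451 in larvae and from 390 to 503 up to 769 to 831 in juveniles (1.41 ± 0.18, adjusted p = 3.4e-04), and the rise was larger in larvae (adjusted p = 0.011 for the difference). Apaf, the core of the apoptosome, and Bak, a pore-forming member of the BCL2 family, had 0.73 ± 0.18 and 0.57 ± 0.14, while Bax had 0.22 ± 0.19 (adjusted p = 0.45). Pidd1-2, of the death domain protein family that activates caspase-2, fell (−1.65 ± 0.30, adjusted p = 0.0028).

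Apoptosis genes were also mixed, with 12 of 83 lower (14.5%, against 8.65% of all genes) and 7 higher (8.43%, against 8.32%), and a median of −0.06. The 3 members with the smallest p were death ligands and an initiator caspase, and they fell. Tnf10-1 and Tnf10-2, named after the death ligand TRAIL, had log2 fold changes of −2.05 ± 0.24 and −1.04 ± 0.12 (adjusted p = 1.9e-04 for both). Tnf10-2 was abundant, going from 2329 to 2699 down to 1160 to 1495 in larvae and from 2255 to 3098 down to 963 to 1357 in juveniles. Casp8-21, of a family of many caspase-8 homologues, had −2.01 ± 0.31 (adjusted p = 0.0010). Cyc-2, a cytochrome c gene, rose by 1.03 ± 0.17 (adjusted p = 0.0018) and also belongs to the respiratory chain.

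Antiviral and innate immune genes made up the longest list. Of 419 tested, 153 were lower (36.5%, against 8.65% of all genes) and 2 higher (0.477%, against 8.32%). Medians were −0.75 over both stages, −0.33 in larvae and −1.04 in juveniles. In 74 of the 419 the irradiated libraries did not reach the controls in either stage, against 4.74% of all genes. The difference between stages was called for 34. Summed over the list, normalized counts were 50036 to 66629 in control larvae, 39767 to 46627 in irradiated larvae, 118886 to 181219 in control juveniles and 53928 to 61395 in irradiated juveniles. These sums did not overlap between treatments in either stage, but the larval groups came close. Control larval library 2 had a sum of 50036 and a median shift of −0.176 from the mean of the larval controls. Irradiated larval library 3 had 46627 and −0.182. Leaving out juvenile control library 2, the highest in the sum, gave 134 lower and 3 higher, with a median of −0.66.

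Single members of this list included receptors, a transcription factor and RNA helicases. Tlr6-1, a Toll-like receptor, had 159, 162 and 97.2 in control larvae, 26.7, 16.6 and 20.7 in irradiated larvae, 69.2, 57.3 and 70.8 in control juveniles and 12.9, 20.7 and 14.3 in irradiated juveniles (−2.39 ± 0.22, adjusted p = 3.0e-05). No difference between its larval and juvenile falls was called (adjusted p = 0.45). Irf8-2, an interferon regulatory factor, had −1.75 ± 0.17 (adjusted p = 7.2e-05), from 70.7 to 119 down to 18.8 to 29.4 in larvae and from 1037 to 1657 down to 370 to 450 in juveniles. Without juvenile control library 2 it had −1.62. Znfx1-2 had −2.0 ± 0.23 (adjusted p = 1.8e-04), and −1.81 without that library. The 2 members called higher were Par14-34, of the PARP14 family (1.02 ± 0.16, adjusted p = 0.0013), and Tlr2-8 (0.67 ± 0.14, adjusted p = 0.0068). Outside the list, Bcl3-5, named after an IkB-like regulator of NF-kB and chosen after its values were seen, had 482, 554 and 725 in control larvae, 231, 149 and 162 in irradiated larvae, 1310, 1466 and 1237 in control juveniles and 354, 320 and 344 in irradiated juveniles. Its groups were apart in both stages (−1.84 ± 0.14, adjusted p = 6.1e-06). Also outside the list, Tenr-5, a tenascin with 75% of its reads in introns (−2.44 ± 0.22), and Unchar_4293 (−2.28 ± 0.18), fell.

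Proteasome genes, whose products degrade ubiquitin-tagged proteins, were higher. Of 35 tested, 31 were higher (88.6%, against 8.32% of all genes) and none lower. The median log2 fold change was 0.69 (0.50 in larvae and 0.89 in juveniles). In 28 every irradiated library lay above every control of its stage, against 5.14% of all genes. The 31 ranged from 0.44 (Prs7, an ATPase of the regulatory cap) to 0.99 (Psa5). Psa5, an alpha-ring subunit of the core, had 573, 620 and 500 in control larvae, 886, 933 and 964 in irradiated larvae, 342, 375 and 364 in control juveniles and 850, 811 and 938 in irradiated juveniles. Control juveniles were lower than control larvae and irradiated animals of both stages were at similar counts (0.99 ± 0.11, adjusted p = 1.9e-04). The catalytic subunit gene Psb5 rose by 0.93 ± 0.13 (adjusted p = 5.1e-04), Psa7-1 by 0.93 ± 0.13 (adjusted p = 6.1e-04) and Psb2 by 0.87 ± 0.12 (adjusted p = 6.7e-04). The 4 members not called were Psmd5 (0.12), Psme4 (0.25), Adrm1 (0.37) and Psd10 (0.38). A difference between the stages was called for 2 of the 35.

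Of 75 heat shock and oxidative stress genes, 16 were higher (21.3%, against 8.32% of all genes) and 2 lower (2.67%, against 8.65%), with a median of 0.20. The count of 16 was 8 without irradiated juvenile library 1, 9 without juvenile control library 3, and 10 without juvenile control library 1 or control larval library 1. Gshr, glutathione reductase, rose by 0.55 ± 0.09 (adjusted p = 0.0019), Prdx6, a peroxiredoxin, by 0.57 ± 0.10 (adjusted p = 0.0028), Thio-6, a thioredoxin, by 0.66 ± 0.12 (adjusted p = 0.0031) and Ch10, the mitochondrial co-chaperonin, by 0.66 ± 0.12 (adjusted p = 0.0035). Prdx6 went from 3084 to 3501 up to 4761 to 5576 in larvae and from 2630 to 3246 up to 3273 to 4436 in juveniles. The 2 that fell were Sodc-3, a copper and zinc superoxide dismutase (−0.56 ± 0.15), and Gstp1-2, a glutathione transferase (−0.78 ± 0.24). Both calls were lost without irradiated juvenile library 2 (adjusted p = 0.0531 and 0.0646) or 3 (0.0588 and 0.0649) and without juvenile control library 1 (0.0526 and 0.0595), and that of Gstp1-2 without 6 other libraries.

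**Figure D4:**
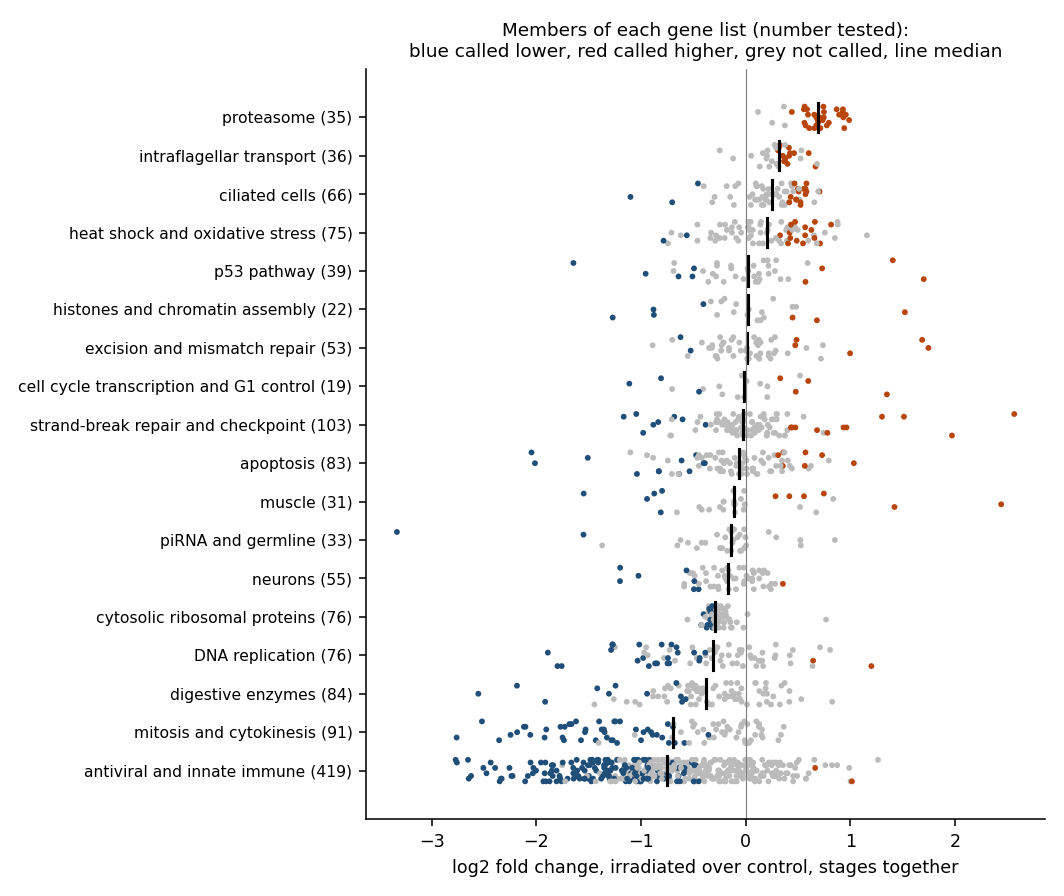
Log2 fold change, irradiated over control with stage as a block, of every tested gene in 18 lists, ordered by list median (black line), with the number tested in parentheses. Blue points were called lower, red points higher and grey points neither: 31 of 35 proteasome genes are red, and 46 of 91 mitosis genes and 153 of 419 immune genes are blue.

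Cilia genes were covered by a list of transport proteins and a list of markers of ciliated cells. Of 36 genes of intraflagellar transport, which carries proteins along cilia, 15 were higher (41.7%, against 8.32% of all genes) and none lower. Their median was 0.32 (0.19 in larvae and 0.43 in juveniles). Arl6, a GTPase of the BBSome coat, had 148, 186 and 203 in control larvae, 243, 245 and 261 in irradiated larvae, 162, 183 and 196 in control juveniles and 297, 321 and 283 in irradiated juveniles (0.60 ± 0.11, adjusted p = 0.0028). Ift25 had 0.67 ± 0.14 (adjusted p = 0.0066) and Tt30a 0.42 ± 0.09 (adjusted p = 0.0069). Called members of the transport list went to 8 without juvenile control library 1 or irradiated juvenile library 1. Markers of ciliated cells had a median of 0.25, with 15 of 66 higher (22.7%) and 3 lower (4.55%), against 8.32% and 8.65% of all genes. However, the stages differed for 30 of the 66, and the medians were −0.07 in larvae and 0.61 in juveniles. Spag6, a protein of the central pair, had 1152 to 1381 in control larvae and 1407 to 1776 in irradiated larvae, against 2027 to 2151 and 4269 to 4807 in juveniles. The count of 15 went to 4 to 6 when any 1 juvenile library was left out and to 24 without irradiated larval library 3.

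Of 76 cytosolic ribosomal protein genes, 14 (18.4%, against 8.65% of all genes) passed as lower and none as higher. Medians were −0.30 over both stages, −0.52 in larvae and −0.05 in juveniles, and the difference between stages was called for 11. Rl7 had 33430 to 39173 in control larvae and 22822 to 23545 in irradiated larvae, against 39660 to 41426 and 33407 to 39950 in juveniles, where the ranges overlapped. The count of 14 was 1 without irradiated larval library 1 or 3 and 43 without irradiated juvenile library 1, and lay between 4 and 11 without any other single library. The share of reads taken by the 10 most abundant genes, given above, also differed between treatments, and its part in this result was not tested.

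**Figure D5:**
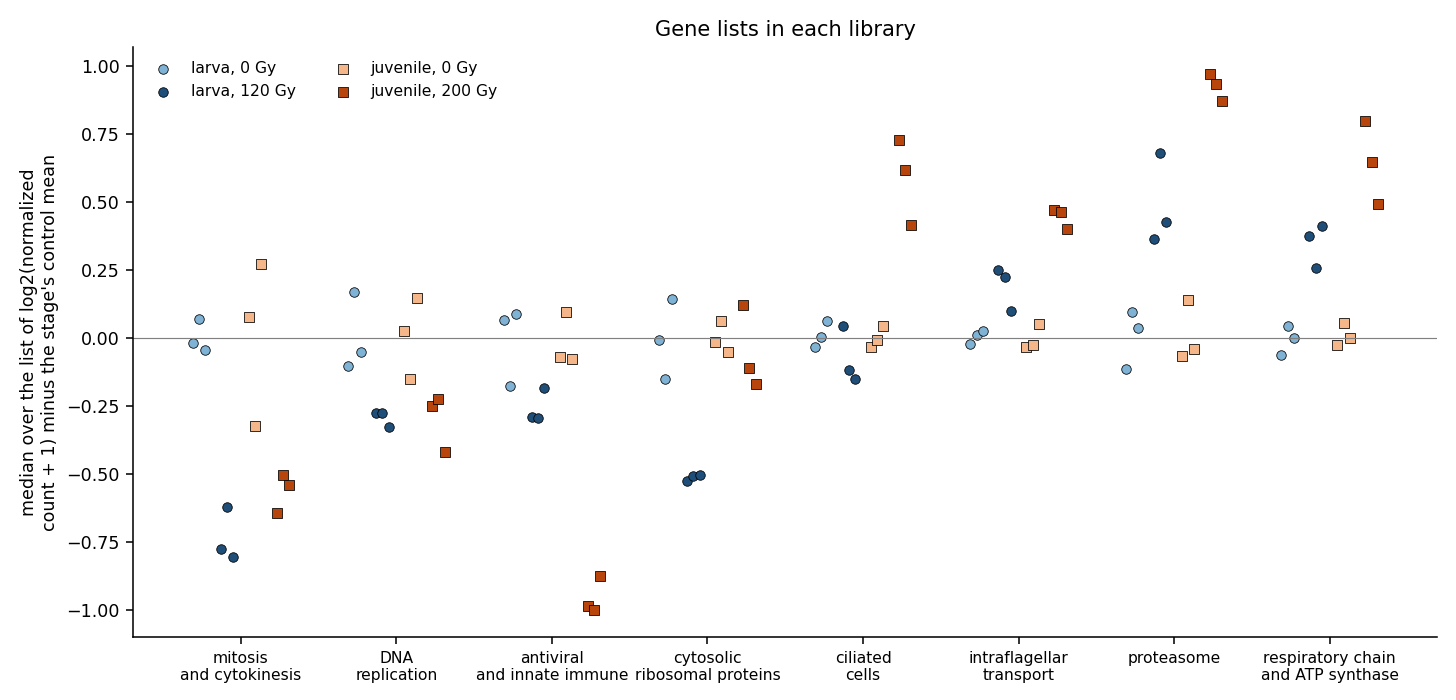
Shift of 8 gene lists in each library: the vertical axis is the median over the list of log2(normalized count + 1) minus the mean of the 3 controls of that stage. Proteasome genes in irradiated animals lie at 0.36 to 0.97 and mitosis genes at −0.80 to −0.50 in both stages, whereas ciliated cell markers lie at 0.42 to 0.73 in irradiated juveniles and at −0.15 to 0.05 in irradiated larvae. The respiratory chain list was written after values had been seen.

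Of 55 neuronal genes, 7 were lower (12.7%, against 8.65% of all genes) and 1 higher (1.82%, against 8.32%). Medians were −0.16 over both stages, 0.04 in larvae and −0.46 in juveniles. The count of 7 went to 4 without juvenile control library 1 or 3. Hdc, histidine decarboxylase, which makes histamine, fell alike in both stages, with 1253, 1396 and 1431 in control larvae, 626, 601 and 534 in irradiated larvae, 1048, 903 and 971 in control juveniles and 492, 363 and 427 in irradiated juveniles. The log2 fold change was −1.21 ± 0.13 in larvae and −1.19 ± 0.13 in juveniles, −1.20 ± 0.10 together (adjusted p = 1.0e-05). The glycine transporter gene Sc6a5-1 had −1.02 ± 0.18 (adjusted p = 0.0021), and Dce1 and Dce2-3, glutamate decarboxylases, had −0.45 ± 0.11 and −0.56 ± 0.11. Digestive enzymes had 11 of 84 lower (13.1%, against 8.65% of all genes) and none higher, and the count went to 7 without juvenile control library 3 and to 21 without irradiated larval library 3. The member with the smallest p was Entk-2, an enteropeptidase homologue, at −1.24 ± 0.20 (adjusted p = 0.0016). Muscle genes were divided, with 5 of 31 lower (16.1%, against 8.65% of all genes) and 6 higher (19.4%, against 8.32%). The lower count went to 3 without irradiated juvenile library 2 or 3. The higher count went to 4 when any 1 juvenile library was left out. Titin-6 had −1.55 ± 0.23 (adjusted p = 9.2e-04) and Cnn3-2, a calponin, 2.44 ± 0.29 (adjusted p = 2.0e-04), although the latter had at most 4.92 normalized counts in any larval library.

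The piRNA and germline list, often used to mark stem cells and germ cells, had 2 of 33 genes lower (6.06%), below the 8.65% over all genes, and none higher. The 2 were Spne-2, described above, and Mov10-2, a helicase (−1.55 ± 0.34, adjusted p = 0.0078). Without juvenile control library 2, Mov10-2 had −1.24 (adjusted p = 0.0182). The median of the list was −0.14, and Spne-1, another spindle-E gene, had −1.37 (adjusted p = 0.072).

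Pooling the stages brought in genes that neither stage called alone, 361 lower and 337 higher. Of those with an annotated name, the 6 with the largest falls were Zch24-1 (−2.14 ± 0.54), Apoa-1 (−2.10 ± 0.47), Arsb-39 (−1.92 ± 0.51), Vwde-29 (−1.77 ± 0.50), Fas-10 (−1.62 ± 0.45) and Sspo-5 (−1.53 ± 0.36). Sspo-5, named after the secreted glycoprotein SCO-spondin, had 3978, 2461 and 4944 in control larvae, 1956, 328 and 1148 in irradiated larvae, 2175, 3751 and 2300 in control juveniles and 636, 1687 and 941 in irradiated juveniles. Its replicates varied widely, and the irradiated libraries were lower than the controls in both stages (adjusted p = 0.011). Apoa-1, named after a serine protease-like apolipoprotein, also had no overlap in either stage. In Vwde-29 and Fas-10 the groups overlapped in both stages, and Zch24-1 overlapped in juveniles, where control library 2 stood at 3411 and irradiated library 3 at 761. Without juvenile control library 2, Zch24-1 had −1.59 (adjusted p = 0.0491) and Arsb-39 had −1.37 (adjusted p = 0.0435). The call of Fas-10 was lost without juvenile control library 2 (adjusted p = 0.0533), control larval library 3 (0.0536) or irradiated larval library 2 (0.0506) or 3 (0.0562), and that of Vwde-29 when any 1 of 6 libraries was left out, with adjusted p-values of up to 0.0745.

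The 6 largest rises of this kind were Mogt1-3 (1.66 ± 0.39), Rtbs-45 (1.65 ± 0.37), Tnnc2-2 (1.42 ± 0.39), 3bhs2 (1.34 ± 0.29), Cp2u1-33 (1.34 ± 0.40) and Cp17a-5 (1.19 ± 0.33). Mogt1-3, an acylglycerol acyltransferase of triglyceride synthesis, had 61.1, 88.9 and 33.4 in control larvae, 191, 126 and 304 in irradiated larvae, 20.3, 21.5 and 19.0 in control juveniles and 68.3, 99.4 and 15.2 in irradiated juveniles, where the groups overlapped through library 3. Both 3bhs2, a steroid dehydrogenase, and Cp17a-5, a cytochrome P450 named after steroid 17-alpha-hydroxylase, are steroid pathway homologues, but 69% of the reads of Cp17a-5 were not placed uniquely. Tnnc2-2, a troponin C, had 6510 to 7838 in control juveniles and 12030 to 15903 in irradiated ones, against 4.43 to 72.9 in any larval library. The call of Cp17a-5 was lost without juvenile control library 1 (adjusted p = 0.0609) or irradiated juvenile library 1 (0.0657) or 2 (0.0563), and that of Cp2u1-33 when any 1 of 6 libraries was left out, with adjusted p-values of up to 0.0868.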

How the data were processed

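RNA of 12 pools of 5 animals was sequenced by the authors (Nugen-Tecan Universal mRNA-seq kit, 75-bp pairs, a single lane) and mapped to the *S. californicum* v2.0 genome in CLC Genomics Workbench. The deposited counts are total gene reads, which are exon plus intron reads per gene, not normalized. Whether counting used strand is not given in the sources used here. Reads could be shared between near-identical copies. The authors' RPKM column was not used. Libraries held 7675726 to 26974509 counted reads.

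The analysis used edgeR 4.0.16 under R 4.3.3 (TMM scaling, filterByExpr on the 4 groups, 20780 of 27463 genes kept, holding 99.9% of the counts). The model was stage plus irradiation, tested by quasi-likelihood, two-sided, with Benjamini-Hochberg adjustment over all genes tested and calls at 0.05. Stage-specific changes and their difference came from a fit with 1 mean per group. Log2 fold changes are given ± SE, and normalized counts are counts divided by effective library size and scaled to 12701186 reads. The script was tested on simulated data. Replicates are separate pools, and nothing in the labels says that they came from separate cultures, so p-values measure the spread between pools.

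Genes with full values were the 12 largest falls and rises with groups apart in both stages, the 6 largest each way among genes called in neither stage alone (mean normalized count of at least 20, and 10 in each stage), members of 18 lists of gene names, and genes that the paper names for both stages. Some of these genes are not reported here. Members and lists were chosen with earlier results of these data known. Lists were matched by gene name without a trailing number. Alternatives were DESeq2 1.42.0 (size factors and Wald test), limma 3.58.1 voom, library totals, 2 other filters, 1 mean per group, a replicate block, unique or exon reads, thinning to 7675726 reads, an adjusted p of 0.01, each stage adjusted separately, and leaving out each library. With a library left out, that group kept 2 libraries and the filter kept 21107 to 21313 genes.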

Additional observations from a re-analysis of the deposited data

Results flagged for a closer look

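Among the 135 genes named by the rule, 11 had responses that differed between larvae and juveniles. The test was the edgeR quasi-likelihood test of the difference with Benjamini-Hochberg adjustment over all genes tested. Other genes named in the text were not part of this screen. Stage and dose cannot be told apart in these differences, which are given as the juvenile minus the larval log2 fold change. Larvae responded more in Ppm1d, by −1.12 (adjusted p = 0.0113), from 1.97 in larvae and 0.85 in juveniles. The rise was also larger in larvae for Unchar_1699, by −3.39 (adjusted p = 0.0254), and Unchar_1739, by −3.06 (adjusted p = 0.0353), whose reads were partly not unique.

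Juveniles rose more in C1qt6-2, by 1.89 (adjusted p = 0.0141), Cp2u1-35, by 2.08 (adjusted p = 0.0333), and Parp1-2, by 0.897 (adjusted p = 0.0181). The cilia genes Spag6 (0.826, adjusted p = 0.023), Efhb (0.784, adjusted p = 0.0275) and Spg16 (0.79, adjusted p = 0.0333) had larval log2 fold changes of 0.292, 0.188 and 0.157, and juvenile ones of 1.12, 0.972 and 0.946. The fall was larger in juveniles for H1d, by −0.934 (adjusted p = 0.0137), and for H4-25, by −1.06 (adjusted p = 0.0357), the 2 genes with a called difference among 22 tested on the histone and chromatin list.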

How the results depend on the processing

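The additive counts of 1798 lower and 1729 higher genes became 749 and 647 at an adjusted p of 0.01. With the replicate number as a block they became 1223 and 1051, and the stricter test of change in each stage went from 78 lower and 53 higher genes to 26 and 17. Under the block, 22 of the 135 genes named by the rule lost their call. The labels do not say that a number marks a shared culture, and same-numbered libraries had correlations of −0.0799 to 0.0632. With 3 libraries a group, such correlations cannot show whether numbers mark shared cultures. Why calls were lost under the block was not tested. Each stage adjusted separately gave 218 and 186 genes. DESeq2's Wald test called 2348 and 2037 genes, limma voom 2309 and 2034, and 1 mean per group 2095 and 2294.

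Leaving out each library in turn gave 1254 to 1858 lower and 1091 to 1969 higher genes, and 24 to 86 and 19 to 48 in the stricter test. Without any library in turn, 1002 of the 1798 lower and 942 of the 1729 higher genes were called every time, and 28 of 131 in the stricter test. Of the 135 genes named by the rule, 32 lost their call in at least 1 of the settings that kept the main limit on the adjusted p. Another 35 called genes named in the text were run through the same settings after the data had been seen. Of these, 2 lost their call, Pcna-1 and Bard1, each without a library. The adjusted p of 0.01 and the separate adjustment of each stage were applied to total gene counts only. Named genes such as Myc-1, Sspo-5 and Chk2 did not reach 0.01 and are not counted as lost here. The one reversal was Mcm10, at −0.138 with exon reads only (adjusted p = 0.586), where its intron reads are not counted.

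Lists were compared over the settings that kept the main limit on the adjusted p. Mitosis genes called lower ranged from 36 to 48. Proteasome genes called higher ranged from 31 to 33 and immune genes called lower from 116 to 183. Ribosomal protein genes ranged from 0 (replicate block) to 49 (1 mean per group), ciliated cell markers from 2 to 30 and transport genes of cilia from 5 to 20. With 3 libraries a group, genes of low count and genes that vary between pools had the least precise values.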

Other observations

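Genes of mitochondrial energy metabolism, in lists written after values had been seen, were higher in both stages. Of 66 genes of the respiratory chain and ATP synthase, 55 were higher (83.3%, against 8.32% of all genes) and none lower. The median log2 fold change was 0.50 (0.34 in larvae and 0.64 in juveniles). In 41 all irradiated libraries were above the controls of their stage, against 5.14% of all genes. Qcr6-1, of complex III, had 1.04 ± 0.12, and the succinate dehydrogenase genes Sdhb-1 and Dhsd-1 had 0.79 ± 0.10 and 0.65 ± 0.09. Of 20 genes of the tricarboxylic acid cycle, 13 were higher (65%, against 8.32% of all genes) and none lower. Among the 13 were Mdhm, mitochondrial malate dehydrogenase (0.82 ± 0.12), and Odo2 of the oxoglutarate dehydrogenase complex (0.73 ± 0.10). Leaving out single libraries gave 42 to 58 called genes for the respiratory chain.

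In the NF-kB pathway, also listed after values had been seen, 17 of 43 genes were lower (39.5%, against 8.65% of all genes) and none higher. The median was −0.49, with −0.08 in larvae and −0.89 in juveniles (−0.395 over both stages without juvenile control library 2), and a difference between stages was called for 10. Ikbz, an IkB-like regulator, had −1.38 ± 0.14, Nemo, a subunit of the kinase that releases NF-kB, −1.12 ± 0.15, Rel-1 −0.84 ± 0.15 and Tnap3, a feedback inhibitor of the pathway, −1.14 ± 0.17. In large families of named genes, 22 of 36 Par14 (61.1%) and 16 of 26 Rn213 genes (61.5%) were lower, against 8.65% of all genes. The Par14 genes are part of the antiviral and innate immune list above. Medians were −0.57 in larvae and −1.58 in juveniles for Par14, and −0.70 and −1.30 for Rn213. Of 280 families with at least 8 tested genes, 10 had 50% or more of their members lower.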
